A study of Mus musculus with 10 samples.

Results

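Arid3a, Arid3b, Nr6a1, Plagl2, Hic2 and Mycn are 6 transcription factor genes known as targets of the let-7 microRNAs. Their mRNA levels were followed in embryonic mouse limb buds labelled Dicer mutant or wild type. The members were all probe sets of the array annotated to exactly 1 of these symbols, which gave 18 of the 45101 probe sets in the table, for 6 of the 18193 genes named there. Arid3a had 1 probe set, Arid3b 2, Nr6a1 5, Plagl2 4, Hic2 3 and Mycn 3. Gene expression was measured on 10 Affymetrix arrays, 5 labelled Dicer mutant and 5 labelled wild type, numbered 1 to 5 in each group. The embryos came from a cross of mice homozygous for a floxed Dicer allele with mice that carried 1 floxed allele and the prxcre driver, which expresses Cre recombinase in the mesenchyme of the limb bud. In mutant limb buds Dicer is therefore deleted in mesenchyme, while blood, vessels, ectoderm and ingrowing muscle and nerve cells come from other lineages. The sources used here do not say whether heterozygous embryos count as wild type, nor do they give the embryonic stage, the limb pair taken or the number of embryos per array. The p-values therefore measure only the spread between these samples, which may be technical.

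Dicer cuts the hairpin precursors of microRNAs into their mature form. The let-7 family accumulates as embryonic cells differentiate, pairs through its seed with sites in target mRNAs, and lowers the stability and translation of those mRNAs. Its targets include many genes of early embryonic growth, and their mRNAs can be higher where let-7 is missing.

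Most family members have the same seed, which is the main part that decides which mRNAs they recognise. A few mature mouse sequences from RefSeq (assembly GRCm38.p6) are therefore shown with the seed, bases 2 to 8, in capitals and the rest in lower case.
mmu-let-7a-5p: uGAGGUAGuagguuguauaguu
mmu-let-7d-5p: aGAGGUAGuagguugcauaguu
mmu-let-7g-5p: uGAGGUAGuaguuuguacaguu
mmu-miR-98-5p: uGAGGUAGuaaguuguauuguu
mmu-let-7j: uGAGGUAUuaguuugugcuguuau
Of the 11 mature sequences of the family in that table, 10 carried the seed GAGGUAG, whose reverse complement, the site letters in an mRNA, is CUACCUC. The remaining sequence, let-7j, carried the seed GAGGUAU. The let-7a-5p sequence shown lies at chr13:48538239-48538260 on the minus strand, let-7d-5p at chr13:48536078-48536099 on the minus strand, let-7g-5p at chr9:106178846-106178867 on the plus strand and miR-98-5p at chrX:151913229-151913250 on the plus strand. The mature microRNAs themselves were not measured by these arrays, and target sites in the 6 mRNAs were not analysed here.

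Dicer1, the targeted gene, checks the labels before any other value. At 1427941_at its signal was 226, 360, 221, 215 and 205 in Dicer mutant 1 to 5, against 425, 233, 372, 390 and 706 in wild type 1 to 5. The second probe set, 1460571_at, had 555, 774, 523, 534 and 506 in Dicer mutant 1 to 5, against 771, 551, 753, 707 and 940 in wild type 1 to 5. At 1460571_at the array labelled Dicer mutant 2 lay among the wild type arrays and the array labelled wild type 2 among the mutant arrays. At 1427941_at both fell between the other arrays of the groups. There Dicer mutant 2 (360) was just below the lowest other wild type array (372). Wild type 2 (233) was just above the highest other mutant array (226). In both probe sets the targeted gene therefore goes against the label of each array numbered 2. No array was given another label. Each comparison is given for all 10 arrays as labelled and for the 8 arrays left without the pair numbered 2. That choice rests on Dicer1 signals, and no p-value from the 8 arrays is corrected for it.

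The limb bud markers Prrx1 (2479 to 2682 in mutant and 2128 to 2898 in wild type arrays), Hand2 (1803 to 2733 in mutant and 1735 to 2524 in wild type arrays) and Hoxd13 (2876 to 3314 in mutant and 2797 to 3456 in wild type arrays) were bright in every array. All 12 markers on the list passed the filter on dim probe sets, a mean signal of 151, but not all were bright. Pitx1 had 152 to 178 in mutant and 154 to 177 in wild type arrays, and the lowest wild type array had 137 for Tbx4. Array medians lay between 145.8 and 152.8. The first principal component, with 37.7% of the variance, separated numbers 1 to 3 from numbers 4 and 5 in both groups, and no label says what these numbers mark. In the 8 arrays the summed signal of 6 white blood cell markers, 3 of them past the filter, was 1246 to 1500 in mutant and 1198 to 1358 in wild type arrays, a log2 difference of 0.15. The sums for endothelium, surface ectoderm, skeletal muscle, nerve and red cells differed by -0.07 to 0.07 on the log2 scale between the groups. Single arrays varied more, for skeletal muscle from 1455 to 3344 in mutant and from 1480 to 4440 in wild type arrays. The part of these cell types in the results below was not tested. In bulk tissue, fewer cells of a type and less RNA per cell cannot be told apart.

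With all 10 arrays as labelled, none of the 6 genes differed between Dicer mutant and wild type limb buds beyond the spread between arrays. Of the 18 probe sets, 12 passed the filter, a mean signal of at least 151 over all arrays, and 6 did not. In limma's fit across 22519 probe sets, 0 of the 12 had a Benjamini-Hochberg adjusted p below 0.05, where 0% of all tested probe sets did. Without adjustment 0 of the 12 had a p below 0.05, beside 2.81% (632) of all tested probe sets, 0.702% as higher, and the fit with the replicate number as a block also called 0. The log2 differences ran between -0.19 and 0.31 with a median of 0.07, against a median of -0.0213 over all tested probe sets, and 8 of the 12 were positive, beside 40.3% of all tested probe sets. Since Dicer1 goes against the labels in the pair numbered 2, these values do not show that the genes are unaffected by loss of Dicer.

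In the 8 arrays without the pair numbered 2, no probe set of the 12 passed the test between Dicer mutant and wild type limb buds. The largest differences were those of Arid3a (1419396_at) and of Plagl2 at 1417517_at and 1417519_at. Limma called 0 of the 12, where 1.68% of all tested probe sets were, 0.928% as higher and 0.75% as lower. With the replicate number as a block, 3 of the 12 were called, all higher, beside 5.41% of all tested probe sets in either direction and 2.40% as higher. In 3 of the 12 every mutant array lay above every wild type array, a pattern seen in 4.12% of all tested probe sets, and in 0 of the 12 every mutant array lay below, beside 4.97%. These were the Arid3a probe set and 2 of Plagl2, and the same 3 had an unadjusted p below 0.05 as higher, as did 5.24% of all tested probe sets, with 12.7% in either direction. The median log2 difference of the 12 was 0.18, against -0.0064 over all tested probe sets, and 11 of the 12 differences were positive, against 47.7% of all tested probe sets. The 12 probe sets stand for 6 genes and several read the same mRNA, so they are not independent of each other. Each of the 12 had geometric means above the filter level in both groups.

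**Figure D1:**
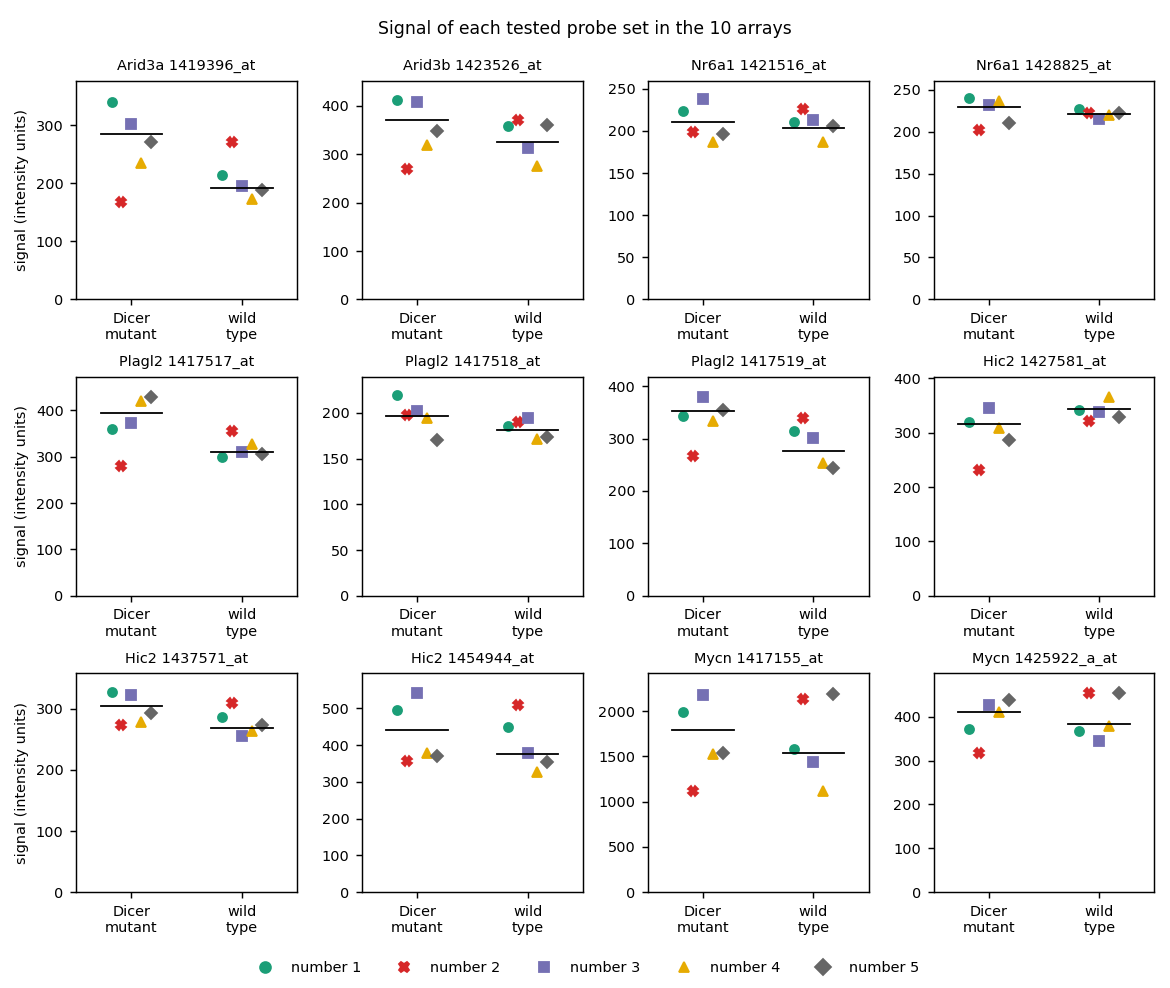
Signal (intensity units, linear axis from 0) of the 12 tested probe sets in each array, Dicer mutant left and wild type right, with a colour and symbol for each replicate number and a black line at the geometric mean of the 4 arrays without number 2. For Arid3a the mutant arrays other than number 2 sit between 235 and 341, above the wild type arrays other than number 2 at 174 to 215, and both red crosses of number 2 lie on the opposite side.

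Arid3a and Arid3b encode DNA-binding proteins with an AT-rich interaction domain, a family that regulates transcription in embryonic and blood-forming cells. Arid3a (1419396_at) had signals of 341, 168, 303, 235 and 271 in Dicer mutant 1 to 5, against 215, 272, 195, 174 and 188 in wild type 1 to 5. Apart from the arrays numbered 2 the groups did not overlap, and Dicer mutant 2 was the lowest of all 10 arrays. Over the 8 arrays Arid3a was 1.48-fold higher in the mutant (log2 difference 0.57, SE 0.12, n = 4 per group, 95% interval 0.30 to 0.83), higher in 4 of 4 pairs. Limma's adjusted p was 0.0516, just short of the threshold of 0.05, and 0.00865 with the replicate number as a block. Exact permutation of the labels gave a two-sided p of 0.0286, the smallest value that 4 against 4 arrays allow. The pairs numbered 1 and 3 gave a mean log2 difference of 0.65 and the pairs numbered 4 and 5 gave 0.48, so the direction was the same on both sides of the first principal component. The limma adjusted p was 0.0236 in pairs 1 and 3 alone and 0.402 in pairs 4 and 5 alone (n = 2 per group in each). Its log2 difference ranked 183 from the top among the 22519 tested in the 8 arrays. With all 10 arrays the log2 difference was 0.31 (SE 0.18, n = 5 per group, limma adjusted p = 1, exact two-sided permutation p = 0.19).

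Arid3b differed less than Arid3a and its arrays overlapped. Arid3b (1423526_at) had signals of 412, 270, 409, 320 and 349 in Dicer mutant 1 to 5, against 358, 371, 314, 275 and 361 in wild type 1 to 5. Dicer mutant 1 and 3 were the highest and Dicer mutant 2 the lowest, and within number 5 the mutant array was slightly the lower. Over the 8 arrays the log2 difference was 0.19 (SE 0.12, n = 4 per group, 95% interval -0.08 to 0.46, limma adjusted p = 0.618), higher in 3 of 4 pairs. It was 0.29 in pairs 1 and 3 and 0.09 in pairs 4 and 5. The interval includes no difference, and the difference between Arid3a and Arid3b was not tested. The second Arid3b probe set, 1447626_x_at, lay under the filter at 84.7 to 118 in mutant and 109 to 126 in wild type arrays, and its log2 difference in the 8 arrays was -0.08 (exact two-sided permutation p = 0.286).

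Plagl2 encodes a zinc finger activator of the PLAG family, linked to growth and stem cell maintenance. At 1417517_at Plagl2 had 359, 280, 374, 420 and 430 in Dicer mutant 1 to 5, against 299, 355, 311, 328 and 305 in wild type 1 to 5. Probe set 1417519_at had 344, 267, 380, 334 and 355 in Dicer mutant 1 to 5, against 314, 339, 301, 253 and 244 in wild type 1 to 5. In both, the mutant arrays other than number 2 lay above all wild type arrays other than number 2, and the order was the opposite within number 2. Without the pair numbered 2, 1417517_at was 1.27-fold higher in the mutant (log2 difference 0.34, SE 0.08, n = 4 per group, 95% interval 0.16 to 0.53, limma adjusted p = 0.0851, and 0.0354 with the replicate number as a block). At 1417519_at the mutant was 1.28-fold higher (0.35, SE 0.10, n = 4 per group, 95% interval 0.13 to 0.58, limma adjusted p = 0.137, and 0.0494 with the block). Each was higher in 4 of 4 pairs with an exact two-sided permutation p of 0.0286. At these Plagl2 probe sets the pairs numbered 4 and 5 stood further apart than pairs 1 and 3, with mean log2 differences of 0.42 against 0.26 at 1417517_at and 0.47 against 0.24 at 1417519_at.

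The remaining Plagl2 probe sets did not share this separation. Probe set 1417518_at had 219, 197, 202, 194 and 170 in Dicer mutant 1 to 5, against 186, 190, 194, 171 and 174 in wild type 1 to 5, which overlap. Its log2 difference in the 8 arrays was 0.11 (SE 0.09, n = 4 per group, limma adjusted p = 0.71), with means of 0.15 in pairs 1 and 3 and 0.08 in pairs 4 and 5. The dim probe set 1442235_at, under the filter, had 64.6 to 91.6 in mutant and 59.6 to 84.9 in wild type arrays, with a log2 difference of 0.15 in the 8 arrays (exact two-sided permutation p = 0.371). Over the 10 arrays the log2 signals of 1417517_at and 1417519_at correlated at r = 0.71, those of 1417518_at and 1417519_at at 0.46 and those of 1417517_at and 1417518_at at -0.00 (Pearson, 10 arrays, a description only, on shared arrays). The sources used here do not say which part of the mRNA each probe set reads.

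**Figure D2:**
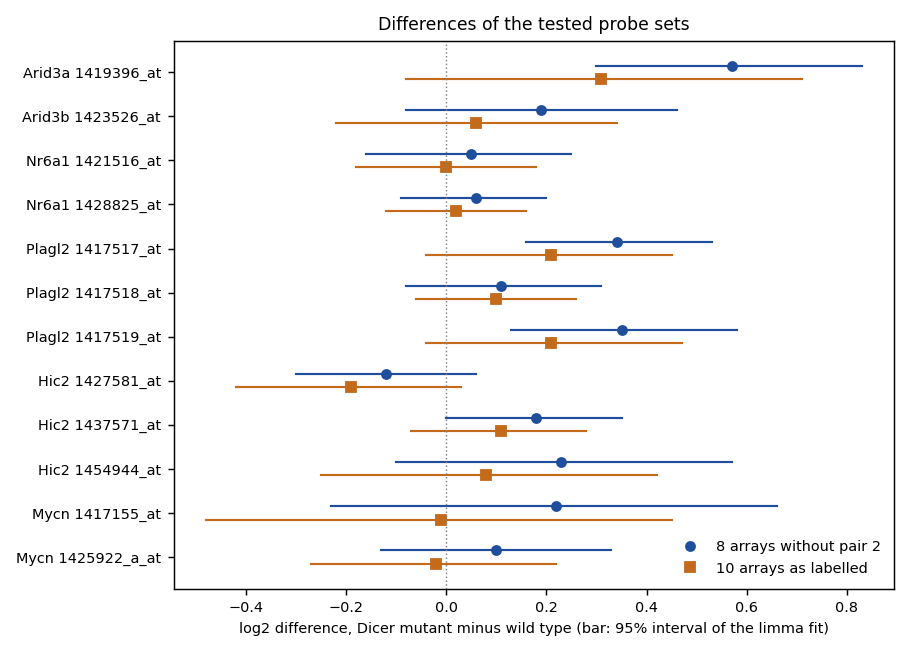
Log2 difference, Dicer mutant minus wild type, of the 12 tested probe sets with the 95% interval of the limma fit, blue circles for the 8 arrays without pair 2 and orange squares for the 10 arrays as labelled. In the 8 arrays the intervals of Arid3a (0.30 to 0.83) and of Plagl2 1417517_at (0.16 to 0.53) and 1417519_at (0.13 to 0.58) lie above 0, and in the 10 arrays each of the 12 intervals includes 0.

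Hic2 encodes a zinc finger repressor with a BTB domain, related to the tumour suppressor Hic1, and its 3 probe sets did not run the same way. The brightest, 1454944_at, had 497, 357, 541, 378 and 371 in Dicer mutant 1 to 5, against 450, 509, 380, 328 and 354 in wild type 1 to 5. Probe set 1437571_at had 328, 273, 322, 278 and 294 in Dicer mutant 1 to 5, against 287, 310, 255, 263 and 273 in wild type 1 to 5. Within each of numbers 1, 3, 4 and 5 the mutant array was the higher in both probe sets, but the groups overlapped. The log2 differences in the 8 arrays were 0.23 (SE 0.15, n = 4 per group, limma adjusted p = 0.626) at 1454944_at and 0.18 (SE 0.08, n = 4 per group, limma adjusted p = 0.393) at 1437571_at. At 1454944_at they were 0.33 in pairs 1 and 3 and 0.14 in pairs 4 and 5.

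The third Hic2 probe set, 1427581_at, had 320, 232, 346, 309 and 286 in Dicer mutant 1 to 5, against 341, 322, 338, 366 and 328 in wild type 1 to 5. Here the mutant array was the lower in every number but 3. The log2 difference was -0.12 in the 8 arrays (SE 0.08, n = 4 per group, 95% interval -0.30 to 0.06, limma adjusted p = 0.628) and -0.19 in all 10 (SE 0.10, n = 5 per group, limma adjusted p = 1, exact two-sided permutation p = 0.0714). It was the one tested probe set of the 6 genes with a negative difference in the 8 arrays. Apart from Plagl2 1417518_at, it was also the one whose sign in the pair numbered 2 was that of its difference over the 8 arrays. Over the 10 arrays 1437571_at and 1454944_at correlated at r = 0.86, and 1427581_at correlated with them at 0.05 and 0.25, in that order (Pearson, 10 arrays, a description only). The direction of Hic2 is therefore not settled by these probe sets.

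Mycn encodes a MYC-family transcription factor that pairs with MAX and promotes cell growth and division, and in the mouse it is needed in limb mesenchyme for growth of the limb. It varied widely within the groups. Mycn (1417155_at) had signals of 1994, 1115, 2176, 1528 and 1536 in Dicer mutant 1 to 5, against 1586, 2136, 1442, 1118 and 2185 in wild type 1 to 5. Wild type 5 was the highest array and wild type 4 nearly the lowest, so the wild type arrays other than number 2 covered nearly the whole range. The SD of the log2 signal was 0.26 in the mutant and 0.40 in the wild type arrays (n = 4 each). The log2 difference over the 8 arrays was 0.22 (SE 0.20, n = 4 per group, 95% interval -0.23 to 0.66, limma adjusted p = 0.783), higher in 3 of 4 pairs. Without wild type 5 it was 0.39 (adjusted p = 0.296), and without wild type 4 it was 0.06 (adjusted p = 0.958). Mycn was 0.46 higher on the log2 scale in pairs 1 and 3. Alone these gave a limma adjusted p of 0.0343 (n = 2 per group), in a fit that called 812 of the 22519 tested probe sets. Pairs 4 and 5 alone gave -0.03 (n = 2 per group, limma adjusted p = 0.983). These pairs differ by 0.45 in pair 4 and -0.51 in pair 5, which set each other off in the mean.

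The second tested Mycn probe set, 1425922_a_at, had 371, 317, 427, 410 and 439 in Dicer mutant 1 to 5, against 367, 453, 344, 379 and 455 in wild type 1 to 5. Wild type 5 was again the highest and Dicer mutant 2 the lowest. Its log2 difference in the 8 arrays was 0.10 (SE 0.10, n = 4 per group, limma adjusted p = 0.826). The third, 1425923_at, lay just under the filter at 136 to 158 in mutant and 132 to 163 in wild type arrays, with a log2 difference of 0.04 in the 8 arrays (exact two-sided permutation p = 0.629).

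Nr6a1 encodes the orphan nuclear receptor GCNF, which represses pluripotency genes such as Pou5f1 as embryonic cells differentiate, and in the 8 arrays its tested probe sets showed the smallest differences of the 6 genes. Nr6a1 (1428825_at) had signals of 240, 202, 232, 237 and 211 in Dicer mutant 1 to 5, against 227, 223, 215, 220 and 222 in wild type 1 to 5. Nr6a1 (1421516_at) had 224, 199, 238, 187 and 196 in Dicer mutant 1 to 5, against 211, 226, 213, 187 and 206 in wild type 1 to 5. The groups overlapped in both. The log2 differences in the 8 arrays were 0.06 (SE 0.06, n = 4 per group, 95% interval -0.09 to 0.20, limma adjusted p = 0.852) and 0.05 (SE 0.09, n = 4 per group, 95% interval -0.16 to 0.25, limma adjusted p = 0.93), so a rise of the size measured for Arid3a lies outside both intervals. The other 3 Nr6a1 probe sets lay under the filter. Their signals were 43.7 to 54.8 in mutant and 42.8 to 50.2 in wild type arrays at 1421515_at, 64.1 to 85.6 in mutant and 61.0 to 83.0 in wild type arrays at 1428826_at, and 93.3 to 121 in mutant and 102 to 125 in wild type arrays at 1445872_at. Their log2 differences in the 8 arrays were 0.11, 0.16 and -0.01 (exact two-sided permutation p = 0.229, 0.143 and 0.914). At such low signals, without detection calls, the distance from background is unknown and a change can be understated.

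Within numbers 1, 3 and 4 nearly all of the 12 tested probe sets stood higher in the mutant array, and within number 2 nearly all stood lower. The mutant array was the higher for 11 of the 12 in number 1, for 12 in number 3, for 11 in number 4 and for 5 in number 5, with median log2 differences of 0.17, 0.32, 0.19 and -0.04. Over all tested probe sets the mutant array was the higher for 44.3%, 49.8%, 49.8% and 48.1% in these numbers. In number 2 the mutant array was the lower for 11 of the 12, with a median of -0.40, beside 61.3% of all tested probe sets. The exception was Plagl2 1417518_at at 0.06, and the widest differences there were -0.94 for Mycn 1417155_at and -0.70 for Arid3a. In number 5, Arid3a (0.53), Plagl2 1417517_at (0.49) and Plagl2 1417519_at (0.54) stood clearly higher in the mutant array, while Mycn 1417155_at stood at -0.51.

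**Figure D3:**
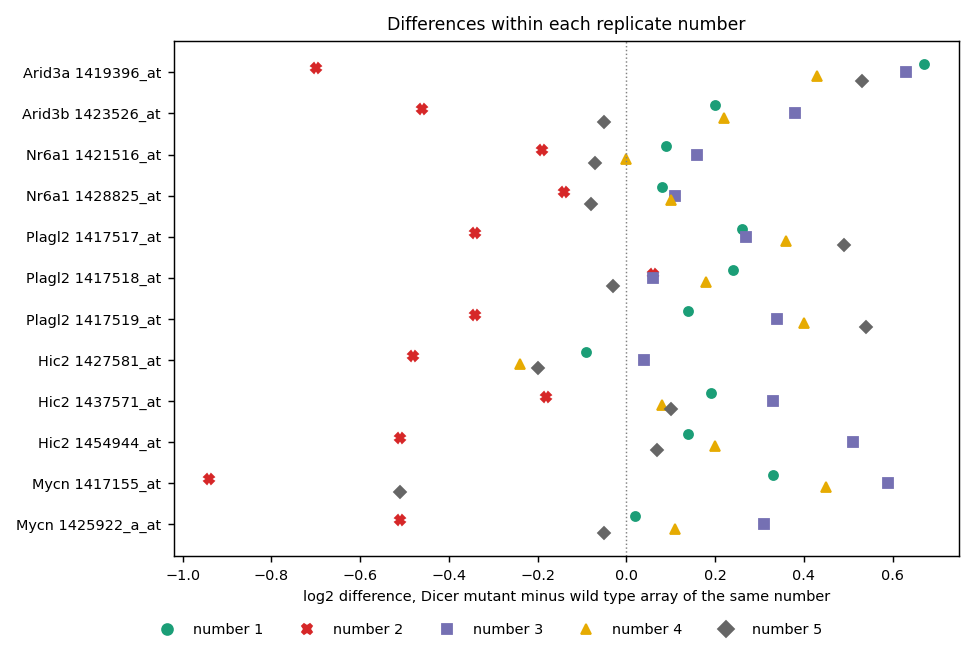
Log2 difference between Dicer mutant and wild type arrays that share a number, for the 12 tested probe sets, with a colour and symbol per number. Number 2 lies left of 0 for 11 of the 12 probe sets, and Arid3a lies at 0.43 to 0.67 in the other numbers.

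Set against the Dicer1 signal of the same array, Arid3a and Plagl2 1417517_at were higher in the arrays with a low Dicer1 signal. In the arrays not numbered 2, this order only repeats the separation of the groups already given for Dicer1 and for these probe sets. Only the arrays numbered 2 add to it, and a relation to the Dicer1 level was not tested. The array labelled Dicer mutant 2, with a Dicer1 signal of 360, had 168 for Arid3a and 280 for Plagl2 1417517_at. The array labelled wild type 2, with a Dicer1 signal of 233, had 272 for Arid3a and 355 for Plagl2 1417517_at. Mycn gave no such order, since wild type 5 combined the highest Dicer1 signal, 706, with the highest Mycn signal, 2185, and wild type 1, with a Dicer1 signal of 425, had a Mycn signal of 1586, above those of Dicer mutant 4 and 5. Since the Dicer1 signals fall into separate clusters, no correlation is given.

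**Figure D4:**
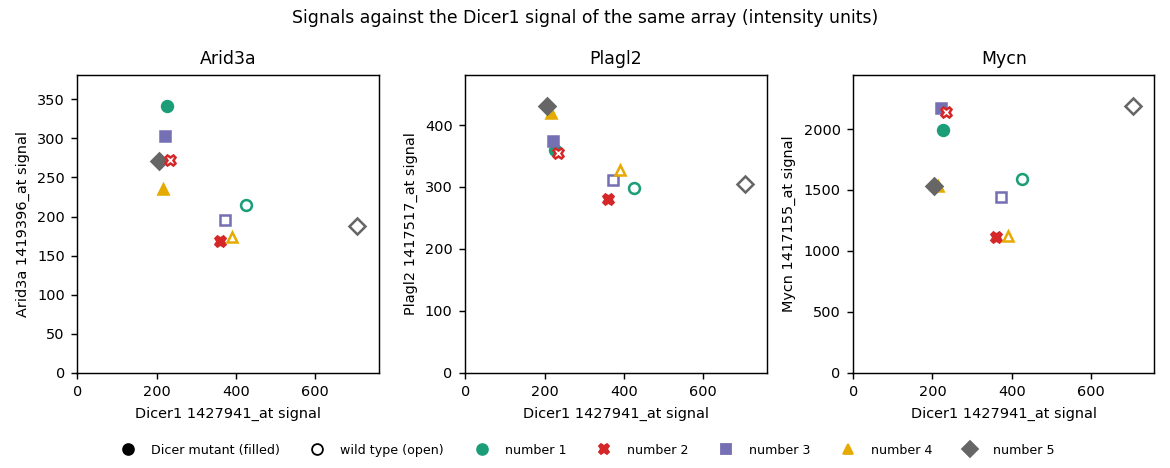
Signal of Arid3a (1419396_at), Plagl2 (1417517_at) and Mycn (1417155_at) on linear axes against the Dicer1 signal (1427941_at) of the same array, filled symbols for Dicer mutant and open symbols for wild type, with colour and shape giving the replicate number. For Arid3a the array labelled Dicer mutant 2 sits close to the wild type arrays and the array labelled wild type 2 close to the mutant arrays. Wild type 5 stands far to the right at 706.

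The genes whose signals ran most like those of each member over the 10 arrays were found by Pearson's r of log2 signals, among probe sets with 1 symbol and past the filter. Arid3a was most like St6gal1, a sialyltransferase gene (r = 0.987), and Ywhag, a signalling adaptor gene (0.976). Plagl2 (1417517_at) was most like Togaram1 (0.990), a gene of cilium structure, and Hnrnpu (0.980), which encodes a nuclear RNA-binding protein. Mycn (1417155_at) was most like Hif3a (0.985), of the hypoxia-inducible factor family, and Hibadh (0.975), of valine breakdown. Arid3b was most like Cyp26b1, the enzyme gene that clears retinoic acid in the limb bud (0.970), and the histone demethylase gene Kdm1a (0.967). Hic2 (1454944_at) was most like the sulfatase gene Sulf2 (0.984) and the histone methyltransferase gene Setd1a (0.982), and Nr6a1 (1428825_at) most like Acad10 (0.918) and Saal1 (0.908). These r values lay between 0.894 and 0.992 in the 8 arrays. They are the highest found among all these probe sets over 10 arrays that share the split between numbers 1 to 3 and 4 and 5, so they describe these arrays only. Among the members, Arid3b and Mycn 1417155_at correlated most closely (r = 0.92 over 10 arrays), followed by Arid3a and Hic2 1437571_at (0.91), and Arid3a and Arid3b stood at 0.85.

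Some other known let-7 targets rose in the 8 arrays. Of 34 listed, 28 were on the array and 24 past the filter with 1 probe set per gene, and the list was chosen with earlier results of these data known. Without the pair numbered 2, 6 were called as higher and 0 as lower, beside 1.09% and 0.983% of 11601 genes. The median log2 difference was 0.146 against -0.012 over all genes. Of the 24 differences 17 were positive and 7 negative, against 45.9% positive over all genes. Prtg, the gene of the membrane protein protogenin, had geometric mean signals of 324 in the mutant and 116 in the wild type arrays (log2 difference 1.49, SE 0.10, limma adjusted p = 0.000436), and Trim71, an RNA-binding ubiquitin ligase, had 428 in mutant and 158 in wild type arrays (1.43, SE 0.13, adjusted p = 0.00118). Igdcc3, an immunoglobulin superfamily receptor, had 463 in mutant and 180 in wild type arrays (1.36, SE 0.17, adjusted p = 0.00774) and Fign, a microtubule-severing ATPase, 422 in mutant and 238 in wild type arrays (0.83, SE 0.10, adjusted p = 0.00774). The log2 difference of 0.57 for Arid3a lay below those of these 4 genes. With the replicate number as a block 7 were higher and 1 was lower, beside 2.53% and 3.84% of genes, and the lower one was Thbs1 (-0.50, adjusted p = 0.0145). With all 10 arrays 0 were called in either direction, beside 0% of genes. The smallest p there belonged to Igdcc3 (0.83, SE 0.35, adjusted p = 1) and Prtg (0.87, SE 0.37, adjusted p = 1).

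Genes related to the 6, and genes around MYCN, showed no calls in the 8 arrays. For comparison, 1.09% of all genes were called as higher and 0.983% as lower, 45.9% of differences were positive, and the median over all genes was -0.012. Of 8 relatives, 6 were past the filter and 0 were called, with a median of -0.035. Hic1, the closest relative of Hic2, had mean signals of 221 in the mutant and 315 in the wild type arrays (log2 difference -0.51, SE 0.20, limma adjusted p = 0.32), and with the replicate number as a block it was called as lower (adjusted p = 0.00829), as were 3.84% of all genes. Nr2c2, an orphan nuclear receptor, had 1070 in mutant and 892 in wild type arrays (0.26, SE 0.09, adjusted p = 0.256). All 11 genes of the MYC and MAX network were past the filter and 0 were called (median -0.049). Max, the partner of MYCN, had 187 in mutant and 203 in wild type arrays (-0.12, SE 0.07, adjusted p = 0.544), and Mnt, a repressor that competes for MAX, 453 in mutant and 385 in wild type arrays (0.24, SE 0.12, adjusted p = 0.454). Of 20 target genes of MYC and MYCN, all past the filter, 0 were called, 15 differences were positive, against 45.9% over all genes, and the median was 0.046. Gart, of purine synthesis, had 1396 in mutant and 1208 in wild type arrays (0.21, SE 0.07, adjusted p = 0.209), and Nme1, a nucleoside diphosphate kinase gene, 2618 in mutant and 2941 in wild type arrays (-0.17, SE 0.06, adjusted p = 0.252). With the replicate number as a block 1 target was called, the replication helicase gene Mcm7, as higher (0.30, adjusted p = 0.0318), beside 2.53% of all genes, so this count of 1 in 20 stands near the background. With all 10 arrays these lists had 0 calls, beside 0% of all genes. Their medians there were 0.020, -0.002 and -0.007, against -0.025 over all genes.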

How the data were processed

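Biotin-labelled cRNA from limb bud RNA was measured on Affymetrix arrays, per the labels' protocols. Linear intensity values were deposited by the authors, already scaled to a common level (trimmed means of 276 to 289). GCOS version 1.3 is named in the submitters' processing notes. No source used here states the summarization model, scaling target or detection calls.

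Signals were floored at 1 before log2. After leaving out 64 control probe sets, the 22519 probe sets with a mean log2 signal at or above the median (a signal of 151) were tested by limma (version 3.58.1, R 4.3.3; lmFit, then eBayes with trend), and p-values were adjusted over all of them by Benjamini-Hochberg at 0.05. The platform annotation gave 1 symbol to 34958 probe sets and several to 932. For gene lists the brightest tested probe set stood for a gene, one marked as shared between transcripts only where there was no other. The number of arrays limits the precision.

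The 6 genes, the lists and the 8-array comparison were chosen with earlier results of these data known. Genes were named by rule: every probe set of the 6 genes and of Dicer1, at most 4 called genes per list, or the 2 of smallest p where none was called, and the 2 genes most like each member. Thbs1 and Mcm7 were named after their values were seen.

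The numbers 1 to 5 occur in both groups. In the 8 arrays arrays of the same number deviated together from their group means, with correlations of 0.55, 0.55, 0.71 and 0.32 for numbers 1, 3, 4 and 5, so the replicate number was also fitted as a block, although arrays of different numbers reached 0.54. In the 10 arrays number 2 gave -0.18.

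Alternatives were quantile normalization, median centring, offsets of 16 and 64, other filters, no trend, array weights, the block, leaving out each array, and pairs 1 and 3 or 4 and 5 alone.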

Additional observations from a re-analysis of the deposited data

Results flagged for a closer look

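Within the groups as labelled, the gap of 1 array to the nearest other, divided by the range of the group, exceeded the critical value of 0.71 for 5 arrays in 2 of 28 groups of values examined, and both concern Dicer1 in the array labelled Dicer mutant 2. Its signal was 360 at 1427941_at, where the other mutant arrays had 205 to 226, and 774 at 1460571_at, where they had 506 to 555. Chance flags about 1 group in 20. None of the 12 tested probe sets of the 6 genes was flagged, and the 6 dim ones were not examined.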

How the results depend on the processing

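With all 10 arrays, 0 probe sets were called under every alternative run, members included. In the 8 arrays the 378 calls over all probe sets became 2612 with array weights, 1219 with the replicate block, 812 in pairs 1 and 3 alone and 0 in pairs 4 and 5 alone, and 93 (without wild type 3) to 745 (without wild type 5) when 1 array was left out. The calls among the 12 tested members, 0 in the main setting, became 1 with quantile normalization (Arid3a, adjusted p = 0.0423), beside 356 of all 22519 tested. Array weights gave 2 (Arid3a at 0.42, adjusted p = 0.032, and Plagl2 1417517_at at 0.42, adjusted p = 0.0065). With 2612 of all 22519 called under array weights, 2 of 12 stands near the background. The replicate block called 3 members, beside 1219 of all tested. Pairs 1 and 3 alone gave 2 (Arid3a and Mycn 1417155_at), beside 812. When 1 array was left out the member calls were 0 to 1. The call was Arid3a without Dicer mutant 4 (0.66, adjusted p = 0.0461), beside 97 of all tested probe sets. Without each of the other arrays the adjusted p of Arid3a was 0.069 to 0.151, and its log2 difference was 0.48 to 0.66 over all 8 of these refits. The block changed no other call among the members.

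Some signs turned, each for a difference that was not called in the main setting. In the 10 arrays Nr6a1 1421516_at was 0.02 with quantile normalization and 0.0088 with median centring, Mycn 1417155_at 0.02 with quantile normalization and 0.06 with array weights, Mycn 1425922_a_at 0.0066 and 0.13 under the same settings, and Hic2 1454944_at -0.01 with array weights. In the 8 arrays Nr6a1 1421516_at was -0.06 with array weights and -0.03 in pairs 4 and 5 alone, and Mycn 1417155_at was -0.03 in pairs 4 and 5 alone. Leaving out 1 of 10 arrays gave ranges of -0.01 to 0.15 for Arid3b 1423526_at, -0.05 to 0.04 for Nr6a1 1421516_at, -0.0091 to 0.05 for Nr6a1 1428825_at, -0.0055 to 0.17 for Hic2 1454944_at, -0.15 to 0.12 for Mycn 1417155_at and -0.08 to 0.05 for Mycn 1425922_a_at, and leaving out 1 of 8 gave -0.02 to 0.10 for Nr6a1 1421516_at. The cause of these changes was not tested. Low signals over an unknown background limit the 6 dim probe sets.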
